A study of Homo sapiens with 6 samples.

Results

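The DNAJ (HSP40) co-chaperones were taken as every gene of the deposited count table whose symbol begins with DNAJA, DNAJB or DNAJC followed by a number, which gave 46 of 19470 genes. They were compared between ILL-treated and control HCCC9810 cells, a human line derived from CCA that the labels give as wild type. ILL, or isolinderalactone, is a sesquiterpene lactone. The ILL group received 20 μM ILL and the control group the DMSO vehicle, both for 24 h, with 3 mRNA-seq libraries per group. The labels do not say that the libraries of a group came from separate cultures, so the p-values measure the spread between these libraries, which may be technical. All values come from 1 cell line at 1 concentration and 1 time, and in bulk RNA fewer cells of a kind and less RNA per cell cannot be told apart.

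DNAJ proteins are the partners that put HSP70 chaperones to work. Each carries a J domain, which binds HSP70 and stimulates its ATPase, so that HSP70 closes on a client protein, and nucleotide exchange factors such as the BAG proteins, HSPH1 and GRPEL1 then open it again. Class A members resemble bacterial DnaJ throughout, class B members keep the J domain and a glycine-rich stretch, and class C members share only the J domain and are tied to a place or task: the ribosome, the spliceosome, histones, synaptic vesicles, endosomes or mitochondria. In the endoplasmic reticulum (ER) several members serve the HSP70 protein HSPA5 (BiP), and their transcription is linked to the unfolded protein response, while DNAJB1 in the cytosol is a classical heat shock gene.

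With ILL, the family shifted in both directions rather than as a block. DNAJB9 rose 3.48-fold and DNAJB2 3.07-fold, DNAJC28 rose from a low level, DNAJC9 and the little expressed DNAJC22 fell, and the remaining members moved by less than 2-fold. Of the 46 members, 38 had enough counts to be tested among 13066 genes by the quasi-likelihood test of edgeR, with p-values adjusted over all of them by Benjamini and Hochberg's method. DEGs were genes with an adjusted p under 0.05 whose fold change was also above 2 or under 0.5. By this rule 5 members were DEGs, or 13.2% of those tested, against 23.9% of all genes. The 3 higher members compare with 12.5% of all genes, and the 2 lower ones with 11.4%. On adjusted p alone 12 members were higher, or 31.6%, against 36.2% of all genes, and 16 were lower, or 42.1%, against 36.9%. In 28 members, or 73.7%, the ILL and control libraries did not overlap, against 75.4% of all genes. The median log2 fold change of the tested members was -0.10 and that of all genes tested -0.0012, and the median size of the change, regardless of sign, was 0.38 against 0.52. Below, "rose" and "fell" are used for members whose adjusted p was under 0.05 in this fit.

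**Figure D1:**
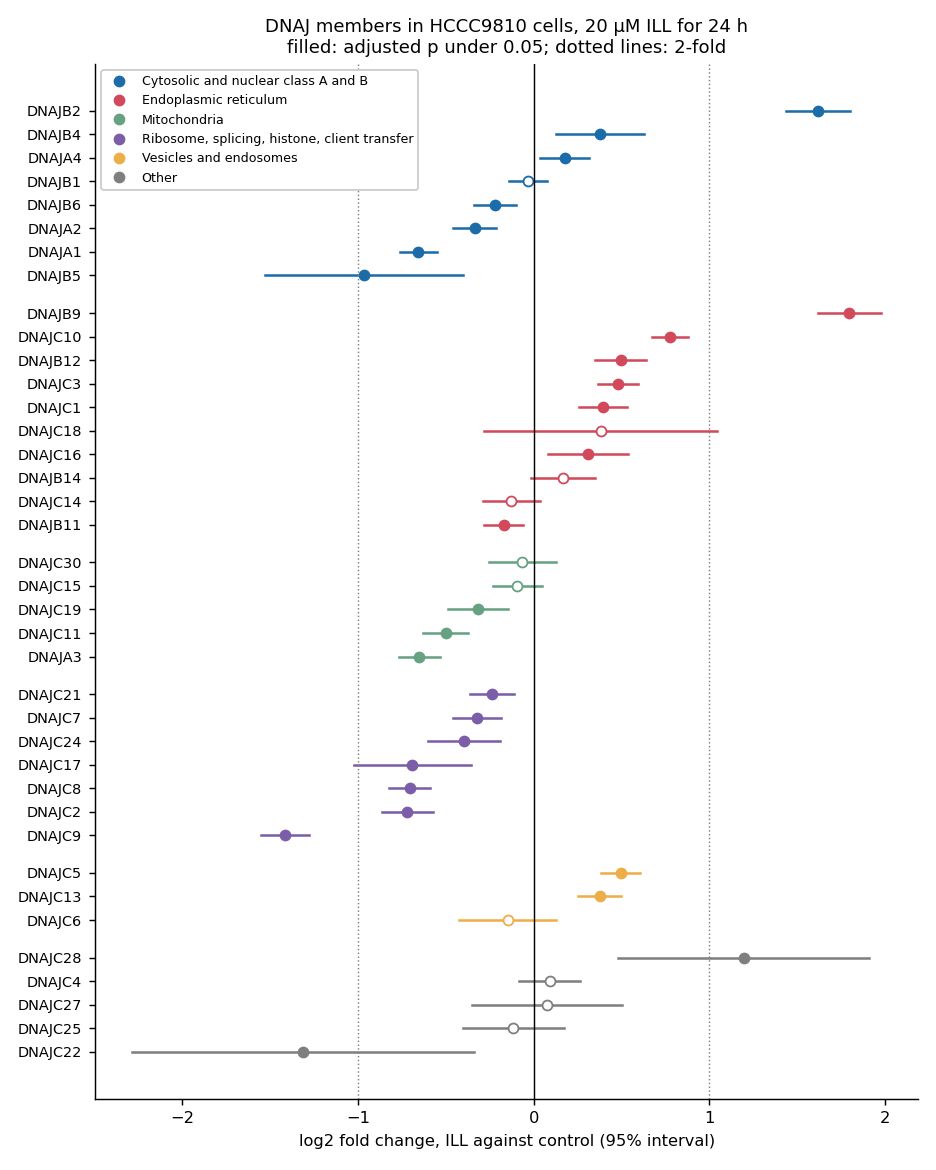
Log2 fold change (x axis, ILL against control) of the 38 tested members, with 95% intervals from the edgeR fit, grouped by role and ordered within each role; filled points had an adjusted p under 0.05. All 7 members of the ribosome, splicing, histone and client-transfer group lie left of 0, and 8 of the 10 ER members lie right of it, with DNAJB9 farthest right at 1.80.

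Total counts were between 34282764 and 37758569 per library, and each library was counted as 1 replicate, since pairs within a group differed beyond sampling noise (chi-square over degrees of freedom from 5.15 to 11.8). The biliary keratins KRT7, KRT8, KRT18 and KRT19 were between 508 and 1678 FPKM in every library, FPKM being the read count corrected for gene length and library total. EPCAM and SOX9 were also present. Of 12 markers of hepatocytes, fibroblasts, immune cells and endothelium, PTPRC, CD3E, TTR, COL3A1 and PDGFRB were at most 0.0911 FPKM in every library, and PECAM1, VWF and CDH5 at most 0.278. ALB, COL1A1 and APOA1 reached 6.61, 2.78 and 1.83 FPKM. CD68 was a DEG higher with ILL, at 63.8 to 66.6 FPKM against 21.7 to 24.4 in controls, and so was VWF, at 13 to 25 counts against 0 to 13. ALB and COL1A1 rose by less than 2-fold, and the part of these markers in the results below was not tested.

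Sequences before the transcription start are shown for some of the members whose windows held letters known to be read by stress or cell cycle factors. The values below can be set beside them. DNAJA1, DNAJB7, DNAJC6, DNAJC15 and DNAJC5G also held such letters, and their sequences are not shown. RefSeq windows of 300 bases on GRCh38.p14, from 250 bases before to 50 after a start, were at hand for 41 members in 53 windows, and 35116 windows of all genes served as background. Both strands were searched for the heat shock element with 3 repeats (GAANNTTCNNGAA), for 2 of its repeats (GAANNTTC or TTCNNGAA, which the longer form contains), for the UPRE core of the unfolded protein response (TGACGTGG), for the C/EBP-ATF element CARE (TGATGNAA), for E2F letters (TTTCGCGC or TTTGGCGC) and for the ER stress element ERSE (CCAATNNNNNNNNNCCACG). Capitals mark a match, and each stretch is written 5′ to 3′ on the gene's own strand. The first 4 stretches, of 150 bases each, lie outside the exons annotated in GENCODE 29. The last 2 lie inside annotated exons and are cut to 30 bases around the match.
DNAJB1, chr19:14518421-14518570, minus strand: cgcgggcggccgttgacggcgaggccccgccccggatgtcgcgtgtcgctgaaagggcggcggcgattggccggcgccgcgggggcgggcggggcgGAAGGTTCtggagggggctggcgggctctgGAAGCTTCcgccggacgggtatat
DNAJA4, chr15:78264394-78264543, plus strand: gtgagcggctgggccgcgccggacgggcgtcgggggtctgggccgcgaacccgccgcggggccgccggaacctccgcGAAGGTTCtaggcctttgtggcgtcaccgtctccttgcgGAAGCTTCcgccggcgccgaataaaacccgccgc
DNAJB6, chr7:157336816-157336965, plus strand: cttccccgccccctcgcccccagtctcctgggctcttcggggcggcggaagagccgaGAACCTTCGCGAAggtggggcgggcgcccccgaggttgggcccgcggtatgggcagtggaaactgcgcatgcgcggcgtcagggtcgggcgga
DNAJB4, chr1:78004704-78004853, plus strand: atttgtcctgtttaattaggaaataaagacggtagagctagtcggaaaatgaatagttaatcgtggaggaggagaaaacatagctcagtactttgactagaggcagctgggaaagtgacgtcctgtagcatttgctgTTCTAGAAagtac
DNAJC10, chr2:182716121-182716150, plus strand: cgcgcacaccgCCACGTCAacctaaaccta
DNAJC9, chr10:73247256-73247285, minus strand: ccctgggctttttggGCGCGAAAaagaagc

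The heat shock element with 3 repeats was in 0.490% of all windows and, among the members, in those of DNAJB6 and DNAJA1, in DNAJA1 just after the start. Pairs of repeats were in 13.5% of all windows and in those of 8 members, DNAJA1, DNAJA4, DNAJB1, DNAJB4, DNAJB6, DNAJB7, DNAJC6 and DNAJC15. Apart from DNAJB7, which had no counts, these 8 had log2 fold changes from -0.66 in DNAJA1 to 0.38 in DNAJB4, and none was a DEG. The UPRE core was in 0.729% of all windows and in that of DNAJC10 alone among the members. E2F letters were in 1.15% of all windows and in those of DNAJC9, DNAJC6 and DNAJC5G. Of these, DNAJC9 had a log2 fold change of -1.42, DNAJC6 was at -0.15 (adjusted p = 0.322 from edgeR) and DNAJC5G had no counts. CARE letters, in 3.62% of all windows, were in a window of DNAJA4, and ERSE letters, in 0.0769%, were in none of the members. A match describes letters and not a bound site, and where none was found these letters are only missing from this window.

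The cytosolic and nuclear members of classes A and B, which serve HSPA8 and the inducible HSPA1A and HSPA1B, moved in both directions. Of the 8 tested, 3 rose (37.5%, against 36.2% of all genes), 4 fell (50%, against 36.9%) and DNAJB1 did not pass the test. DNAJB2, DNAJB4 and DNAJA4 rose, while DNAJA1, DNAJA2, DNAJB5 and DNAJB6 fell.

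DNAJB2, a co-chaperone with ubiquitin-interacting motifs that steers clients toward the proteasome, lies at chr2:219279267-219286900 on the plus strand of GRCh38 in GENCODE 29. It had 739, 784 and 884 counts in controls, in the order of the replicate numbers, and 2510, 2480 and 2090 with ILL. Every ILL library lay far above every control library, and the mean rose from 22.1 ± 2.99 to 67.8 ± 6.99 CPM (SD, n = 3), CPM being the count corrected for library total with the TMM factors of edgeR. Its log2 fold change was 1.62 (SE 0.089, adjusted p = 2.86e-14 from edgeR).

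DNAJA1, the main class A partner of HSPA8 and the member with the highest level per length, was at 281, 278 and 298 CPM in controls and at 184, 185 and 174 CPM with ILL. The groups did not overlap, and the log2 fold change was -0.66 (SE 0.051, adjusted p = 2.84e-11 from edgeR). DNAJB1, the heat-inducible HSP40 that gave the family its name, was at 194, 209 and 196 CPM in controls and at 191, 195 and 199 CPM with ILL. These values overlap, the log2 fold change was -0.032 (SE 0.052, adjusted p = 0.586 from edgeR), and its 95% interval ran from -0.14 to 0.074, so changes of 2-fold lie outside it. DNAJB6, which keeps aggregation-prone proteins soluble, was at 121, 116 and 119 CPM in controls and 109, 94.5 and 103 CPM with ILL. All ILL libraries lay below all controls, by a small margin, with a log2 fold change of -0.22 (SE 0.058, adjusted p = 0.00167 from edgeR).

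The other cytosolic members moved less or were low. DNAJA2, the second abundant class A partner, fell by 0.34 on the log2 scale, and DNAJA4, its relative, had a log2 fold change of 0.18. DNAJB4, close in sequence to DNAJB1, rose by 0.38 and DNAJB5, another relative, fell by 0.96, at 104, 131 and 127 counts in controls against 52, 54 and 72 with ILL. DNAJB5 was thus just short of 2-fold (SE 0.27, adjusted p = 0.0028 from edgeR). It passed 2-fold without control replicate 1 (-1.10) or ILL replicate 3 (-1.12) and with scaling by library size only (-1.03). The rise of DNAJA4 did not pass the test without control replicate 1 (adjusted p = 0.119), control replicate 2 (0.0647) or ILL replicate 1 (0.0745), nor that of DNAJB4 without control replicate 3 (0.0691), all from edgeR. DNAJA4 also did not pass with scaling by library size only (adjusted p = 0.150 from edgeR) or with limma on log2 FPKM. Its rise was lost in 7 of 15 alternatives, and that of DNAJB4 in 2 of 15.

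**Figure D2:**
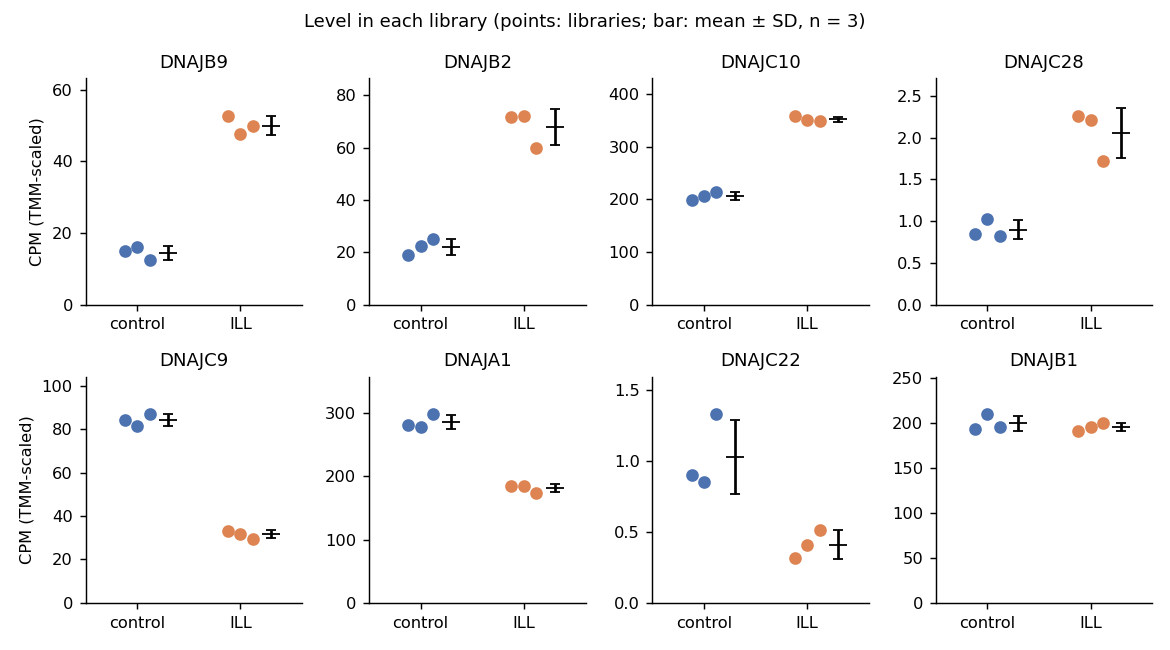
CPM after TMM scaling (y axis, from 0) in each control and ILL library for 8 members, with mean ± SD (n = 3) beside the points. In DNAJB9, DNAJB2, DNAJC10, DNAJC28, DNAJC9, DNAJA1 and DNAJC22 the groups do not overlap, and in DNAJB1 they do.

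The balance of the classes in the cytosol moved with these members. On the FPKM scale, class A (DNAJA1, DNAJA2 and DNAJA4) summed to 170 ± 4.46 in controls and 114 ± 3.32 with ILL (SD, n = 3), and class B (DNAJB1, DNAJB2, DNAJB4, DNAJB5 and DNAJB6) to 109 ± 2.07 and 121 ± 3.47. The ratio of class A to class B was 1.58, 1.49 and 1.61 in the controls and 0.928, 0.964 and 0.928 in the ILL libraries. The rise of class B lay in DNAJB2, without which class B summed to 97.1 ± 2.10 in controls and 86.4 ± 2.89 with ILL (SD, n = 3). Without DNAJB2, a sum taken after the values were seen, class A stayed above class B in every library, at ratios of 1.67 to 1.84 in controls and 1.25 to 1.39 with ILL. These ratios within a library do not depend on how libraries were scaled, and were given no test.

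Among the HSP70 genes of the same compartment, HSPA8 fell and HSPA1A and HSPA1B rose. HSPA8, the constitutive HSP70 and by far the most abundant of them, went from 898 ± 47.9 to 451 ± 13.8 FPKM (SD, n = 3), a log2 fold change of -0.92 (SE 0.049, adjusted p = 1.75e-14 from edgeR). HSPA1A and HSPA1B, stress-inducible copies of nearly the same sequence between which reads can be split, had log2 fold changes of 0.90 and 0.59. The exchange factor HSPH1 fell by 1.26 and BAG3, a stress-induced exchange factor, rose by 0.33. HSPA6, a strictly inducible HSP70, was called lower at -1.25 on 10 to 48 counts per library, and this call was lost in 6 of 13 alternatives, without control replicate 3 (-0.78), ILL replicate 2 (-1.11) or ILL replicate 3 (-1.10) among them. The summed FPKM of the 8 cytosolic members was 279 ± 3.61 in controls and 234 ± 6.29 with ILL (SD, n = 3). That of HSPA8, HSPA1A and HSPA1B was 1032 ± 50.9 and 670 ± 15.9. Both sums fell, and the first per the second was 0.271 ± 0.0098 in controls and 0.350 ± 0.0144 with ILL (SD, n = 3). The groups did not overlap in this ratio, which was not taken without DNAJB2.

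The ER held the member that rose most. Of 10 ER members tested, 6 rose, or 60% against 36.2% of all genes. Only 1 fell, or 10% against 36.9%, and 3 did not pass the test. Their median log2 fold change was 0.39, against -0.10 for all members tested and -0.0012 for all genes. DNAJB9, DNAJC10, DNAJB12, DNAJC3, DNAJC1 and DNAJC16 rose, DNAJB11 fell, and DNAJB14, DNAJC14 and DNAJC18 did not pass.

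DNAJB9, or ERdj4, helps to degrade misfolded ER proteins and holds the stress sensor IRE1 inactive together with HSPA5. It lies at chr7:108569568-108574850 on the plus strand. It had 576, 562 and 436 counts in controls and 1844, 1638 and 1742 with ILL. Every ILL library lay far above every control, the mean rose from 14.4 ± 1.87 to 50.02 ± 2.55 CPM (SD, n = 3), and the log2 fold change was 1.80 (SE 0.087, adjusted p = 2.53e-15 from edgeR). Of its 2837 exon bases, 183 are shared with THAP5 and 99 with PNPLA8 on the opposite strand, and the strand setting of the counting is not given in the sources used here. THAP5 had a log2 fold change of -0.062 (adjusted p = 0.666 from edgeR) and PNPLA8 of 1.90.

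DNAJC10, or ERdj5, reduces disulfide bonds of proteins bound for degradation, and is the member whose window held the UPRE core. It went from 206 ± 7.30 to 352 ± 4.92 CPM (SD, n = 3), with all ILL libraries at 349 CPM or above and no control above 213 CPM. Its log2 fold change of 0.77 was the next largest rise in the ER. DNAJB12, an ER membrane protein whose J domain faces the cytosol and which helps to dispose of membrane proteins, rose by 0.49, and DNAJB14, its close relative, was at 0.17 (adjusted p = 0.088 from edgeR). DNAJC3, or p58IPK, a lumenal holdase, rose by 0.48, DNAJC1, which binds ribosomes at the ER membrane, by 0.39, and the thioredoxin-like DNAJC16 by 0.31. The rise of DNAJC16, at 397 to 609 counts, did not pass the test without control replicate 2 (adjusted p = 0.0917) or ILL replicate 3 (0.104), both from edgeR. It was also lost with scaling by library size only (adjusted p = 0.0568 from edgeR) and with limma on log2 FPKM, so in 6 of 15 alternatives. DNAJC18, another membrane member, was at 0.38 with an interval from -0.28 to 1.05 on 45 to 74 counts, and DNAJC14, linked to receptor export, was at -0.13. Without control replicate 3, DNAJC14 passed the test at -0.21 (adjusted p = 0.0168 from edgeR), and without ILL replicate 2, DNAJB14 passed it at 0.25 (0.0123).

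DNAJB11, or ERdj3, the ER member with the highest FPKM in both groups and a binder of nascent chains, moved the other way. It was at 130, 129 and 128 CPM in controls and at 111, 113 and 119 CPM with ILL. The groups did not overlap, and the log2 fold change was -0.17 (SE 0.053, adjusted p = 0.00637 from edgeR). HSPA5 itself rose, from 101 ± 3.35 to 188 ± 6.55 FPKM (SD, n = 3), with a log2 fold change of 0.96 (SE 0.050, adjusted p = 8.48e-15 from edgeR). HSPA13, an ER-associated HSP70 relative, rose by 1.08 and was a DEG, but fell short of 2-fold without ILL replicate 1, at 0.996. The exchange factors HYOU1 and SIL1, named in addition after their values were seen, rose by 0.50 and 0.39. The 5 members that meet HSPA5 in the lumen (DNAJB9, DNAJB11, DNAJC1, DNAJC3 and DNAJC10) summed to 130 ± 0.865 FPKM in controls and 148 ± 1.73 with ILL (SD, n = 3). Per HSPA5 they were at 1.31, 1.31 and 1.22 in the controls and at 0.795, 0.744 and 0.813 in the ILL libraries, and the groups did not overlap. The deposited FPKM of DNAJC10 imply a length of 20144 bases, the longest of any member, so its share of this sum is small for its counts and the ratio itself depends on that length. Without DNAJC10, again taken after the values were seen, the ratios were 1.12 to 1.21 in controls and 0.658 to 0.721 with ILL.

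**Figure D3:**
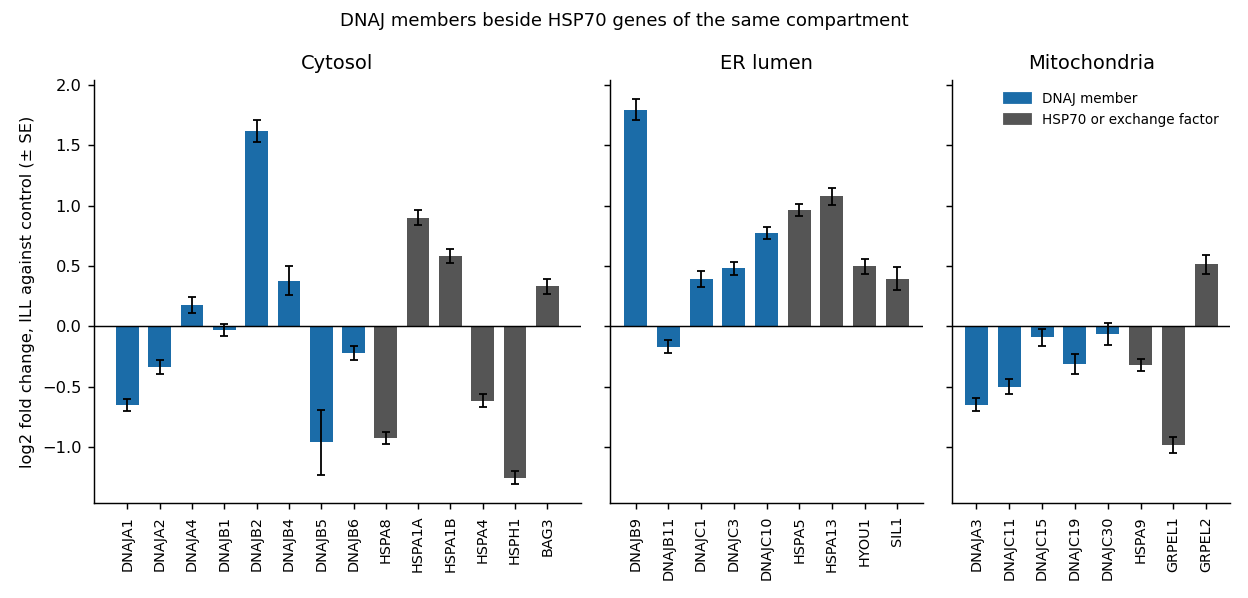
Log2 fold change ± SE (y axis, ILL against control) of members (blue) and of HSP70 and exchange factor genes (grey) in the cytosol, the ER lumen and mitochondria. In the ER lumen every bar is above 0 except DNAJB11 at -0.17. In the mitochondria panel, which leaves out DNAJC28 and DNAJC4, every bar is below 0 except GRPEL2 at 0.51.

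None of the 5 tested members grouped here as mitochondrial rose. Among them DNAJA3, DNAJC11 and DNAJC19 fell, or 60% against 36.9% of all genes, and DNAJC15 and DNAJC30 did not pass the test. The roles were drawn up with earlier results of these data known, so these counts depend on how members were placed. DNAJC28, which rose, and DNAJC4 were placed in no named role and are not counted here. DNAJA3, the class A partner of the matrix HSP70 protein HSPA9, went from 111 ± 3.36 to 70.7 ± 1.90 CPM (SD, n = 3), a log2 fold change of -0.65. DNAJC11, which associates with the complex that shapes the inner membrane, fell by 0.50, and DNAJC19, of the protein import motor, by 0.32. DNAJC15, its relative at the motor, was at -0.093 with an interval from -0.23 to 0.048, and DNAJC30, an inner membrane member, at -0.064 with an interval from -0.26 to 0.13. HSPA9 fell by 0.32, so that DNAJA3 per HSPA9 went from 0.544 ± 0.0311 to 0.433 ± 0.01004 on the FPKM scale (SD, n = 3), again without overlap. GRPEL1 and GRPEL2, the exchange factors of HSPA9, had log2 fold changes of -0.99 and 0.51 and are named after their values were seen.

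The class C members of the ribosome, splicing, histones and client transfer all fell, 7 of 7 tested, against 36.9% of all genes. Their median log2 fold change was -0.69. This group joins members of unlike tasks and was drawn up with earlier results of these data known. Its count depends on how it was drawn and is a description. DNAJC9 fell most of all 38 members.

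DNAJC9, a co-chaperone of histones H3 and H4 whose window held E2F letters, lies at chr10:73183362-73248862 on the minus strand. It had 3274, 2868 and 3068 counts in controls and 1163, 1095 and 1035 with ILL. The highest ILL library was far below the lowest control, and the mean fell from 84.2 ± 2.57 to 31.5 ± 1.83 CPM (SD, n = 3). Its log2 fold change was -1.42 (SE 0.066, adjusted p = 9.34e-16 from edgeR). Of its 3955 exon bases, 949 are shared with FAM149B1 on the opposite strand, which had 201 to 230 counts in controls and 382 to 536 with ILL, a rise of 1.196 on the log2 scale. Counting either strand, exon bases shared with other genes were 58.1% in DNAJC14, 29.1% in DNAJC9, 27.9% in DNAJC11, 26.1% in DNAJC17 and 23.2% in DNAJB11. Other tested members had smaller shares, and the part of shared bases in the values was not tested.

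DNAJC8, a splicing factor partner and the third member by FPKM in controls, was at 104, 104 and 108 CPM in controls and 63.2, 65.0 and 65.4 CPM with ILL. The groups did not overlap, and the log2 fold change was -0.70 (SE 0.056, adjusted p = 4.07e-11 from edgeR). DNAJC17, also tied to splicing, fell by 0.69 on 151 to 382 counts. DNAJC2, or MPP11, sits on the ribosome with HSPA14 and helps new chains to fold, and both fell. DNAJC2 fell by 0.72, and HSPA14, a DEG, fell by 1.32. HSPA14 had 1319 to 1645 counts in controls and 495 to 613 with ILL. DNAJC21, needed for maturation of the large ribosomal subunit, fell by 0.23, DNAJC24, which serves diphthamide synthesis on elongation factor 2, by 0.40, and DNAJC7, which passes clients between HSP70 and HSP90, by 0.32.

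Members of vesicles and endosomes showed a rise in 2 of 3, or 66.7% against 36.2% of all genes. DNAJC5, the cysteine string protein of secretory vesicles, went from 187 ± 6.96 to 264 ± 15.2 CPM (SD, n = 3), a log2 fold change of 0.50. DNAJC13, or RME-8, which works on endosomes, rose by 0.38. DNAJC6, the auxilin of clathrin uncoating in neurons, was at -0.15 with an interval from -0.42 to 0.13. Its widely expressed relative GAK, a J-domain protein under another symbol that was named after its value was seen, rose by 0.64.

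Of the 5 remaining members tested, DNAJC28 rose and DNAJC22 fell, both from low counts, and DNAJC4, DNAJC25 and DNAJC27 did not pass the test. DNAJC28, a little studied member at chr21:33485530-33491720 on the minus strand, had 33, 36 and 29 counts in controls and 79, 76 and 60 with ILL. The groups did not overlap, at a mean of 0.898 ± 0.110 CPM against 2.06 ± 0.299 CPM (SD, n = 3), and the log2 fold change was 1.195 (SE 0.35, adjusted p = 0.00344 from edgeR). DNAJC22, a membrane member at chr12:49346917-49357546 on the plus strand, had 35, 30 and 47 counts in controls and 11, 14 and 18 with ILL. Its mean was 1.03 ± 0.262 CPM against 0.412 ± 0.1004 CPM (SD, n = 3), and the log2 fold change was -1.31 (SE 0.47, adjusted p = 0.0151 from edgeR). This call was lost without control replicate 3 (-1.09, adjusted p = 0.087) or ILL replicate 1 (-1.15, adjusted p = 0.0664), both from edgeR, which left 1 lower DEG in the family. DNAJC4 was at 0.091, DNAJC25 at -0.12, and DNAJC27, which carries a Rab-like GTPase domain, at 0.075. The sign of DNAJC27 turned without control replicate 3 (-0.065) or ILL replicate 2 (-0.025).

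The levels per length set these changes in proportion, with DNAJC10 placed low by the length its FPKM imply. In controls the order was DNAJA1 at 126 ± 4.22 FPKM, DNAJB11 at 80.4 ± 1.11, DNAJC8 at 61.1 ± 1.11 and DNAJB1 at 50.05 ± 2.16 (SD, n = 3), with no overlap between neighbours. DNAJB6 at 42.1 ± 0.940 and DNAJA3 at 42.1 ± 1.30 came next, and these overlapped. With ILL, DNAJA1 at 76.2 ± 2.51 and DNAJB11 at 68.1 ± 2.34 still led, followed by DNAJB1 at 46.6 ± 0.910 and DNAJC5 at 38.1 ± 2.11. DNAJC5, DNAJC8, DNAJB2 and DNAJB6 stood at places 4 to 7 with ILL and each overlapped the next. DNAJB2 went from place 18 to 6 and DNAJB9 from place 27 to 12, while DNAJC9 went from place 7 to 20. DNAJA1 was 2.52 ± 0.174 times DNAJB1 in controls and 1.64 ± 0.085 times with ILL (SD, n = 3). Across the family, 33 members had a mean of at least 1 FPKM over all libraries and 21 of at least 10 FPKM.

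**Figure D4:**
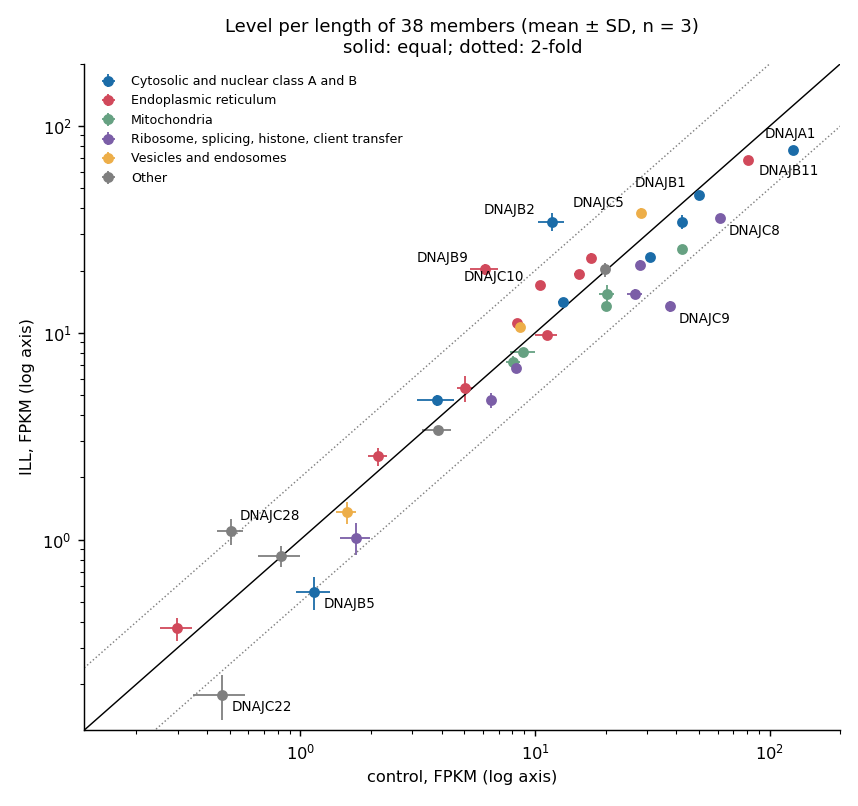
Mean FPKM ± SD (n = 3) of the 38 tested members in controls (x axis) and with ILL (y axis), both on log axes, coloured by role. DNAJB2, DNAJB9 and DNAJC28 lie above the dotted line of 2-fold higher, DNAJC9, DNAJC22 and, by a small margin on this scale, DNAJB5 lie below that of 2-fold lower, and DNAJA1 is at the top in both groups.

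Summed over all 46 members, the level was 769 ± 2.64 FPKM in controls and 655 ± 5.35 with ILL (SD, n = 3). Their share of all counts was 0.245% ± 0.000486 against 0.237% ± 0.00277. The FPKM sum is corrected for gene length and was not TMM-scaled, and DNAJC10 enters it with its implied 20144 bases. Within the sum, ER members took 20.4% ± 0.243 in controls and 26.99% ± 0.545 with ILL, and vesicle and endosome members 5.01% ± 0.0887 and 7.64% ± 0.274. The ribosome, splicing, histone and client-transfer group took 22.1% ± 0.361 and 15.02% ± 0.394, and mitochondrial members 12.9% ± 0.469 and 10.7% ± 0.0567. The cytosolic group was at 36.3% ± 0.546 and 35.8% ± 0.680 and overlapped between groups. DNAJA1 alone went from 16.4% ± 0.568 to 11.6% ± 0.290 of the sum, and DNAJB2 from 1.53% ± 0.205 to 5.26% ± 0.503. Shares of a sum are tied to each other, so they are given without a test.

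**Figure D5:**
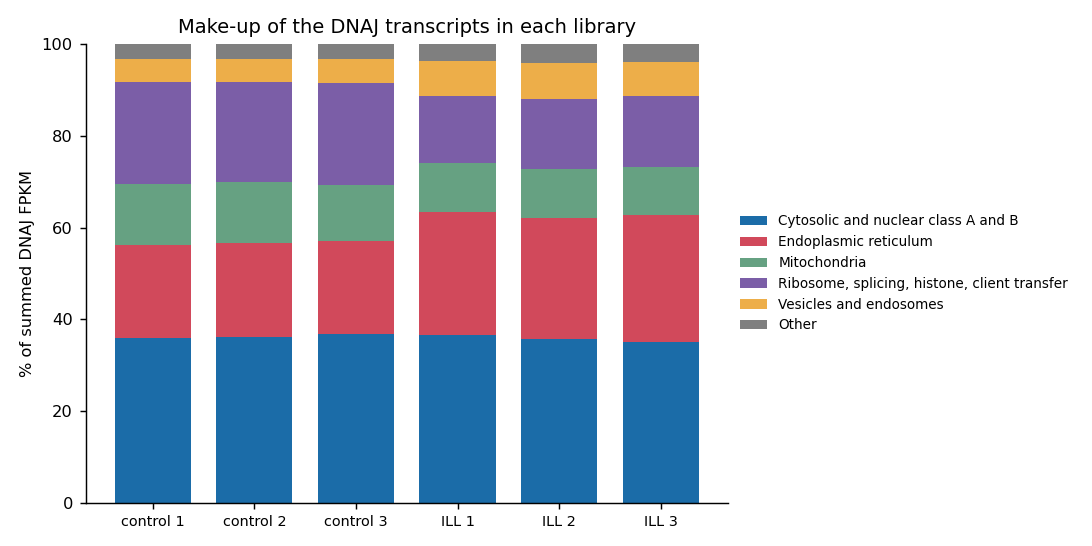
Share of the summed FPKM of the family (y axis, %) by role in each of the 6 libraries, each bar adding up to 100%. The ER share is 20.1% to 20.6% in the control libraries and 26.4% to 27.5% in the ILL libraries, and the cytosolic share is 35.1% to 36.9% over all 6.

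The 8 members that were not tested are mostly known from other tissues. DNAJB3, DNAJB7, DNAJB8, DNAJC5G and the read-through gene DNAJC25-GNG10 had 0 counts in every library, which allows up to 0.0795 to 0.0875 CPM by 3 counts per library, a limit for counting error only. DNAJB7, DNAJB8 and DNAJC5G are testis genes, GENCODE 29 lists DNAJB3 as a transcribed processed pseudogene, and every exon base of DNAJC25-GNG10 also belongs to DNAJC25 or GNG10. DNAJB13, an axoneme protein, had up to 6 counts, DNAJC12, which assists aromatic amino acid hydroxylases, up to 3, and DNAJC5B, a testis relative of DNAJC5, 1 count in ILL replicate 1.

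The HSP70 genes, exchange factors and J-domain proteins with other symbols, 29 of 30 tested, also moved in both directions. Of these, 4 were DEGs, or 13.8% against 23.9% of all genes, with HSPA13 higher and HSPA14, HSPH1 and HSPA6 lower. On adjusted p alone 13 were higher, or 44.8% against 36.2% of all genes. Another 11 were lower, or 37.9% against 36.9%, and 5 did not pass the test. Of the 15 HSP70 genes tested 6 rose and 6 fell, with HSPH1 and HYOU1, exchange factors of the HSP70 family, counted among them. Of the 10 exchange factors outside that family (BAG1 to BAG6, HSPBP1, SIL1, GRPEL1 and GRPEL2) 5 rose and 4 fell. GAK and SEC63, J-domain proteins with other symbols, rose.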

How the data were processed

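RNA-seq of 6 HCCC9810 libraries was analysed, 3 with ILL and 3 with vehicle, grouped by the sample labels. The authors deposited a table of unnormalized read counts by gene symbol and a table of FPKM values, each with 1 column per library. The submitters' processing notes name GRCh38 and DESeq2, and the aligner, counting program and strand setting are not given in the sources used here. Counts were filtered with filterByExpr, scaled by TMM and tested with edgeR 4.0.16 in R 4.3.3 (quasi-likelihood test, Benjamini-Hochberg adjustment). The biological coefficient of variation was 0.0717. The fit was tested on simulated data. Alternatives were DESeq2 1.42.0, other scalings and filters, a replicate block, each library left out, and limma 3.58.1 on log2 FPKM plus 1 or 0.1. Deposited FPKM served for levels between genes.

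The members, roles, partner genes and motifs were chosen with earlier results of these data known. Every member is named, with full values for DEGs and for the 5 members with the highest mean FPKM. HSP70 partners were named when they were DEGs, with HSPA1A, HSPA1B, HSPA8, HSPA5, HSPA9, HSPH1 and BAG3. Positions come from GENCODE 29 (all 46 members matched) and sequences from RefSeq. Protein and qPCR data were not analysed here. A few listed genes are not reported here.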

Additional observations from a re-analysis of the deposited data

How the results depend on the processing

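Direction and side of the adjusted p threshold held in all alternatives run for 29 of 38 members. The sign turned in DNAJC27 without control replicate 3 (-0.065) or ILL replicate 2 (-0.025) and in DNAJC30 without control replicate 1 (0.026), with ranges over left-out libraries of -0.065 to 0.22 and -0.13 to 0.026. On adjusted p alone there were 28 member DEGs (12 higher, 16 lower), 24 partner DEGs (13 and 11) and 9547 in all (4726 and 4821). With limma on FPKM, 3 members were DEGs, 2 higher and 1 lower. Partner DEGs higher were 0 with limma on FPKM plus 1, with or without a filter. Among all genes, limma gave 1591 DEGs (668 higher, 923 lower) on FPKM plus 1, 1609 (680 and 929) without a filter, and 909 higher on FPKM plus 0.1. The higher share of DEGs was 52.4% in edgeR, 47.4% with library size only, and 42.0% to 42.3% with limma. Library size only gave 3 lower members, adding DNAJB5. The causes were not tested, except that low genes such as DNAJC28 and DNAJC22 are held back by the pseudocount or removed by the FPKM filter. The members' median was -0.17 with library size only, where that of all genes was -0.070, -0.12 without a filter, -0.092 with at least 10 counts, and -0.14, -0.17 and -0.11 with limma on FPKM plus 1, plus 0.1 and without a filter. Leaving out libraries gave medians from -0.14 to -0.073, 4 to 6 member DEGs (3 higher in each, 1 to 3 lower), 3 to 5 partner DEGs (0 to 1 higher, 2 to 4 lower) and 3083 to 3165 DEGs in all. With the replicate block, 5 members, 3 partners and 3111 genes were DEGs, and HSPA6 lost its call (adjusted p = 0.0654 from edgeR). The numbers were not used to pair the libraries in the main fit. Same-numbered libraries had deviations with r from -0.0605 to 0.0067, and unlike-numbered ones from -0.0589 to 0.0722. These values show no strong link by number, but cannot tell whether same-numbered libraries were handled together. Depth limits DNAJC22, DNAJC28, DNAJC18 and HSPA6, at under 100 counts per library.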
